A study of Saccharomyces cerevisiae with 6 samples.

Results

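The amino acid permease genes described here are AGP1, GNP1, BAP2, BAP3, TAT1, TAT2, DIP5, MUP1, SAM3 and HIP1 of the budding yeast Saccharomyces cerevisiae. They were chosen by name, with earlier results of these data known. Each was found as the probe whose systematic name is its open reading frame. All 10 had a probe among the 6256 gene probes of the array, each printed as 2 spots, and all 10 were among the 5890 genes tested. The series set the selected mutant strain BH13, which resists coniferyl aldehyde better, against the reference strain, here REF. Coniferyl aldehyde is a phenolic compound derived from lignin. The labels give BH13 as 1 selected mutant and name no allele for either strain. Both strains were untreated and were harvested in log phase (OD600 about 1.0) from yeast minimal medium at 30 °C and 150 rpm, with 3 replicates of each on single-colour Agilent arrays.

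Yeast takes up amino acids through proton-coupled permeases of the plasma membrane that share a fold with many membrane-spanning helices. Some accept a broad range of amino acids and others are restricted to 1 or a few. Many of their genes are switched on when the membrane sensor Ssy1, with its partners Ptr3 and Ssy5, detects amino acids outside the cell. The protease Ssy5 then cleaves the latent transcription factors Stp1 and Stp2, which enter the nucleus. This route is called the SPS pathway. Other permease genes, such as that of the general permease Gap1, are controlled by the quality of the nitrogen source through GATA-type factors, and the amount of permease at the membrane is also set by ubiquitin-driven endocytosis.

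Between 91.4% and 93.8% of the 12512 gene spots on an array were well above background, and no gene spot was saturated. Across the 5890 genes tested, log2 signals correlated at 0.994 to 0.998 between arrays of the same strain and at 0.854 to 0.877 between strains, genes not being independent replicates. The mean net signal of the negative controls was 58.2 to 63.5 units in BH13 and 27.4 to 31.9 units in REF. All BH13 arrays were on 1 slide and scanned on 1 day. Those of REF were on 2 further slides and scanned on a different day, so strain, slide and day of scanning cannot be told apart. The strains also differed in cell state. All 6 a-cell genes listed (STE2, MFA1, MFA2, STE6, BAR1 and AGA2) fell in BH13, with summed signals of 25.3% to 26.8% of the array's 75th percentile in BH13 and 745% to 779% in REF, and on no BH13 array were MFA2 and AGA2 well above background. All 6 genes that are high in slow growth or stress (HSP12, HSP26, GPH1, TSL1, CTT1 and SPG4) rose, with sums of 3471% to 3745% in BH13 and 75.2% to 122% in REF. The part of these shifts in the permease differences below was not tested.

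The 10 permease genes changed in both directions. All 4 members of broad range, AGP1, GNP1, BAP2 and BAP3, rose in BH13, as did 38% of all genes tested. The gene of the general permease, GAP1, is not among the 10 and fell by 2.30 on the log2 scale. Of the 6 permeases of narrower range, 5 fell (TAT1, TAT2, HIP1, MUP1 and SAM3), as did 43.3% of all genes, and DIP5, the permease of the acidic amino acids, rose. The fall of TAT1 was no longer called with another background correction. On the processed signal the differences ran from -5.15 on the log2 scale for SAM3 to 3.31 for DIP5, and with normexp background correction these were -4.46 for SAM3 and 1.37 for DIP5, whose REF signal was close to background. In RNA from whole cultures, fewer cells expressing a gene and less of its RNA per cell cannot be told apart.

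By limma with Benjamini-Hochberg adjustment over all genes tested, 5 of the 10 were called higher and 5 lower at an adjusted p under 0.05. Over all genes 81.3% were called, so that being called sets the permeases little apart. At least 2-fold differences were found for 4 that rose and 4 that fell, where 17.9% of all genes were called and at least 2-fold higher and 17.5% at least 2-fold lower, together 35.5%. On the processed signal BAP2 and TAT2 were the members under 2-fold. With normexp background correction TAT1 too was under 2-fold, at -0.30 on the log2 scale. The median size of the difference was 1.59 on the log2 scale for the 10 permeases and 0.69 for all genes tested. The 10 were chosen with earlier results of these data known, so their contrasts with all genes are descriptive and were not tested. The signed median was 1.80 for the broad members, which leave out GAP1, -1.23 for the narrower ones and -0.07 for all genes. In all 10 the values of BH13 and REF did not overlap, as was so for 83.7% of all genes. The grouping by breadth was made by hand with earlier results known, and the difference between the classes was not tested. TAT1, counted as narrow, also carries branched-chain amino acids. The direction of the permeases is visible array by array in the plot of signal by strain.

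**Figure D1:**
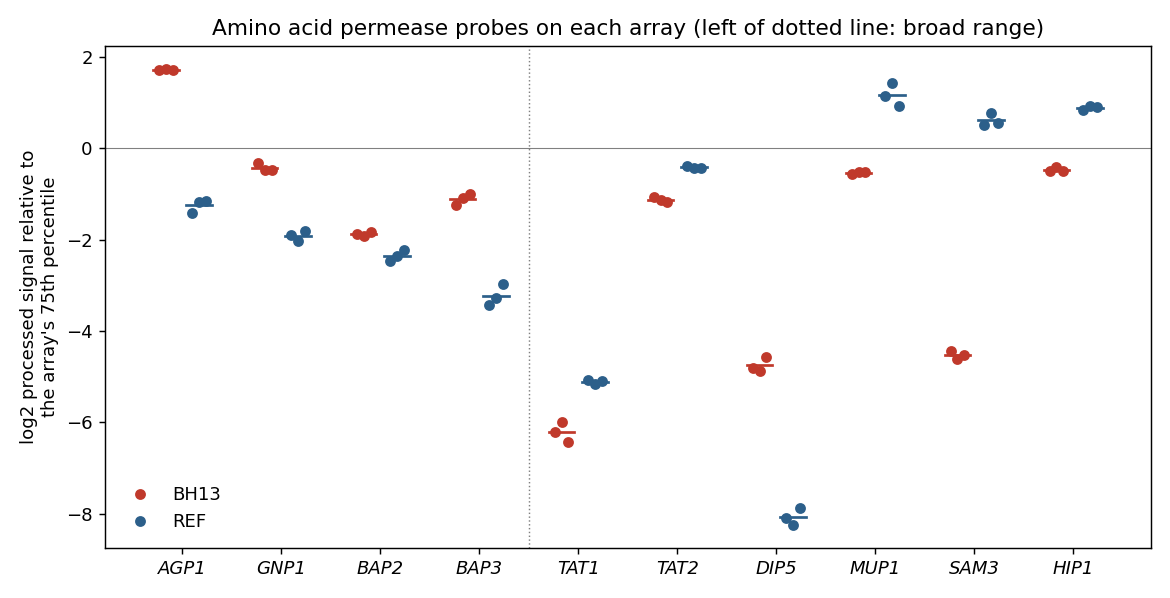
Processed signal of each permease probe on each array, as log2 relative to that array's 75th percentile of gene spots; points are the 3 arrays of BH13 (red) and of REF (blue) and bars their means. In all 10 genes the strains do not overlap, with BH13 above REF for AGP1, GNP1, BAP2, BAP3 and DIP5 and below it for the other 5.

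AGP1, which encodes a low-affinity permease for many neutral amino acids, had the largest increase among the broad permeases. Its signal was 327%, 334% and 329% of the array's 75th percentile in BH13, against 37.3%, 44.3% and 44.8% in REF. The BH13 arrays were all high and nearly identical, and the lowest of them was far above the highest REF array. The difference, BH13 minus REF, was 2.97 ± 0.09 on the log2 scale (SE, n = 3 arrays per strain, limma adjusted p = 5.79e-08), a 7.86-fold increase. Of all genes tested, 96.3% had a smaller difference in size.

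GNP1, whose product carries glutamine and several other neutral amino acids, is the closest relative of AGP1. It stood at 79.5%, 71.9% and 71.9% of the 75th percentile in BH13, against 26.8%, 24.4% and 28.6% in REF. All BH13 arrays were higher than all REF arrays. The log2 difference was 1.49 ± 0.09, or 2.80-fold (limma adjusted p = 1.03e-06, n = 3 per strain).

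BAP2 and BAP3 encode permeases of leucine, isoleucine and valine that also take other neutral amino acids. BAP3 had 42.2%, 47.0% and 49.8% of the 75th percentile in BH13, against 9.31%, 10.3% and 12.7% in REF. That gave a log2 difference of 2.11 ± 0.12, or 4.33-fold (limma adjusted p = 9.85e-07, n = 3 per strain). BAP2 had 27.4%, 26.2% and 28.1% in BH13, against 18.1%, 19.5% and 21.2% in REF. The BAP2 groups did not overlap, but on the log2 scale the gap between them was the narrowest of the 10. Its log2 difference was 0.48 ± 0.08, or 1.39-fold (limma adjusted p = 0.000739, n = 3 per strain), and 36.5% of all genes had a smaller one.

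TAT1 and TAT2 encode the tyrosine and tryptophan permeases, TAT2 being the high-affinity route for tryptophan. TAT2 had 47.6%, 45.5% and 44.2% of the 75th percentile in BH13, against 75.9%, 74.5% and 74.1% in REF. Both strains were tight, and TAT2 fell by 0.71 ± 0.07 on the log2 scale in BH13 (limma adjusted p = 2.07e-05, n = 3 per strain).

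TAT1 was dim in both strains. It had 1.35%, 1.56% and 1.15% of the 75th percentile in BH13, against 2.98%, 2.79% and 2.92% in REF, and on 1 BH13 array only 1 of its 2 spots was well above background. It fell by 1.11 ± 0.11 on the log2 scale (limma adjusted p = 2.54e-05, n = 3 per strain). With normexp background correction and an offset of 50, the log2 difference was -0.30 and was no longer called (limma adjusted p = 0.0572), so that the fall of TAT1 depends on how the background is taken off.

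HIP1, the high-affinity histidine permease gene, had 70.6%, 75.5% and 70.6% of the 75th percentile in BH13, against 179%, 189% and 186% in REF. The spread within each strain was small beside the gap between them. HIP1 fell by 1.35 ± 0.07 on the log2 scale (limma adjusted p = 5.89e-07, n = 3 per strain), and REF was 2.56-fold above BH13.

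MUP1 and SAM3 serve sulfur compounds. MUP1 is the high-affinity methionine permease and belongs to another transporter family than the other 9. It had 68.0%, 69.3% and 69.4% of the 75th percentile in BH13, against 221%, 270% and 189% in REF. REF arrays varied more than BH13 arrays, with SDs of 0.02 in BH13 and 0.26 in REF on the log2 scale, yet none reached down to BH13. MUP1 fell by 1.70 ± 0.12 on the log2 scale (limma adjusted p = 3.45e-06, n = 3 per strain).

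SAM3, the high-affinity permease of S-adenosylmethionine, had the largest difference of the 10. Its signal was 4.59%, 4.08% and 4.30% of the 75th percentile in BH13, against 143%, 171% and 148% in REF. Both spots were well above background on all 6 arrays, though the BH13 signal was dim, at 132, 93.9 and 100 units. SAM3 fell by 5.15 ± 0.09 on the log2 scale (limma adjusted p = 1.42e-08, n = 3 per strain). With normexp background correction the difference was -4.46, so that the size of the fall depends on how the background is taken off. SAM3 ranked 24 by size of difference on the processed signal among the 5890 genes.

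DIP5, the permease of glutamate and aspartate that also takes some neutral amino acids, was dim in BH13 and close to background in REF. It had 3.55%, 3.41% and 4.19% of the 75th percentile in BH13, against 0.367%, 0.329% and 0.425% in REF. The log2 difference was 3.31 ± 0.12 (limma adjusted p = 9.33e-08, n = 3 per strain). On each REF array only 1 of the 2 DIP5 spots was well above background, and the spots differed by 32.1% to 88.3% of their mean there, against 1.78% to 9.40% in BH13. With both spots required to be well above background, a filter chosen after seeing the data, DIP5 passed on 3 BH13 arrays and 0 REF arrays. With REF raised to a floor (mean log2 -7.76), BH13 was 7.99-fold higher on the processed signal. That is no lower limit, since normexp correction gave DIP5 a log2 difference of 1.37, still called higher.

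**Figure D2:**
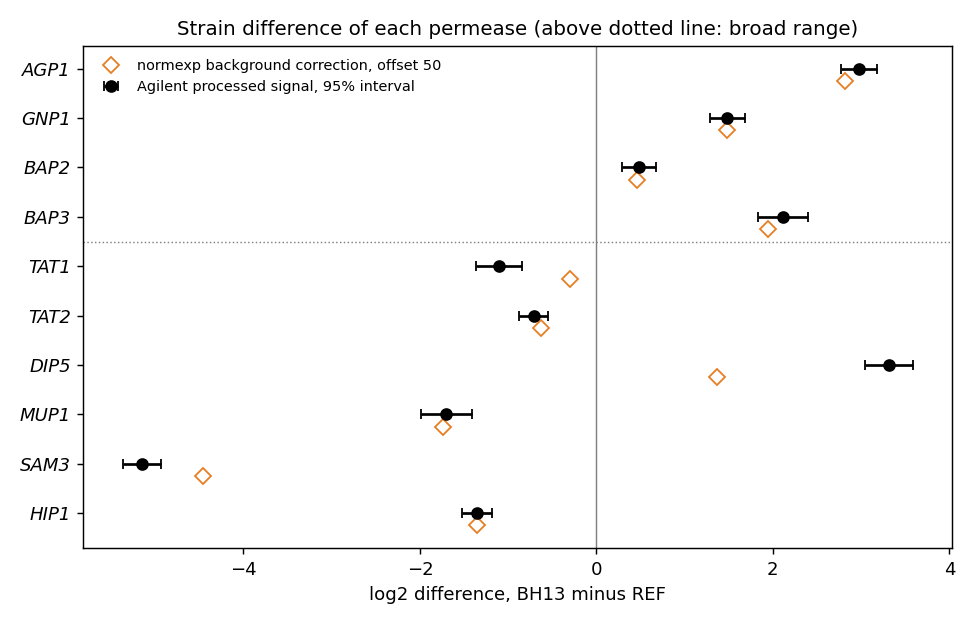
Log2 difference in signal, BH13 minus REF, for each permease; black points with bars are limma estimates on the Agilent processed signal with 95% intervals (n = 3 arrays per strain) and open diamonds the same difference after normexp background correction. The estimates run from 3.31 for DIP5 to -5.15 for SAM3, and the diamonds lie clearly nearer to 0 for DIP5 (1.37), TAT1 (-0.30) and SAM3 (-4.46).

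Absolute signal ranks showed where each probe stood among all gene probes of its array. A rank depends on the probe as well as on the transcript. As a measure of the transcript, each is therefore set only against the same probe in the other strain. The sizes of the moves in rank do not follow the log2 differences and are not compared between genes. AGP1 lay at the 90.7, 90.8 and 90.7 percentile of all 6256 probes on the BH13 arrays, against 50.8, 55.8 and 55.6 on the REF arrays. SAM3 moved the other way and lay at the 16.2, 15.4 and 16.0 percentile in BH13, against 81.3, 83.7 and 81.8 in REF.

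HIP1 and MUP1 were also among the brighter probes of REF. Their mean percentiles were 67.8 in BH13 and 84.8 in REF for HIP1, and 66.5 in BH13 and 87.2 in REF for MUP1. GNP1 had mean percentiles of 68.5 in BH13 and 41.5 in REF, and BAP3 56.8 in BH13 and 23.9 in REF. BAP2 had mean percentiles of 42.9 in BH13 and 34.1 in REF, and TAT2 56.5 in BH13 and 68.9 in REF. TAT1 and DIP5 stayed among the dimmest probes of both strains, at 9.40 in BH13 and 14.3 in REF for TAT1 and at 14.8 in BH13 and 5.99 in REF for DIP5.

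**Figure D3:**
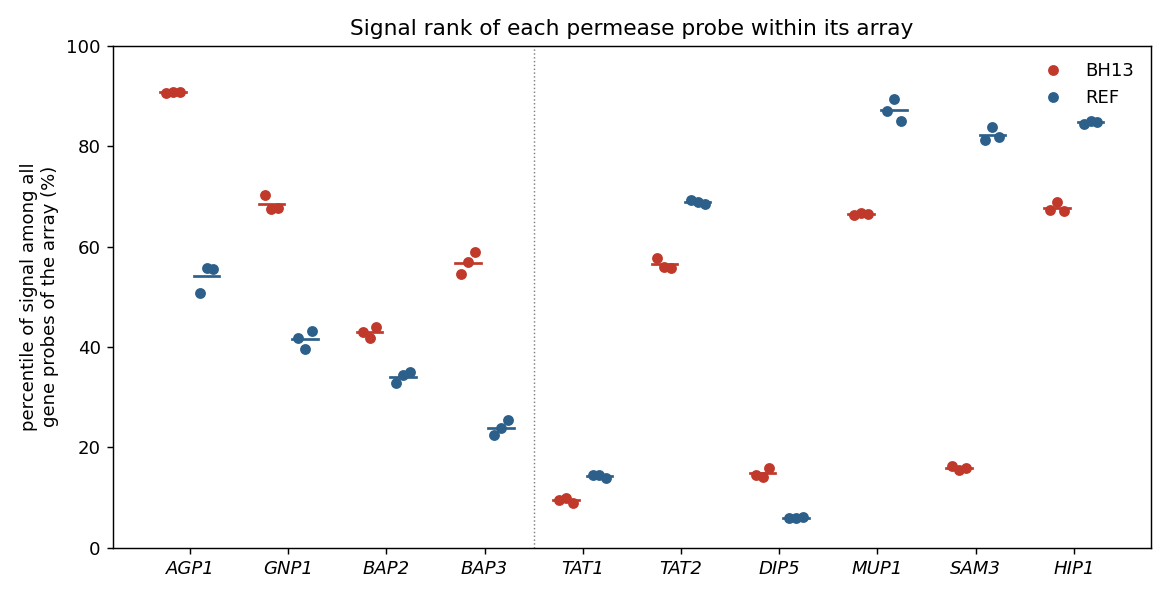
Percentile of each permease probe's signal among the 6256 gene probes of the same array, with the 3 arrays of BH13 (red) and of REF (blue) and their means as bars. AGP1 stands near 91 in BH13 and between 50.8 and 55.8 in REF, whereas SAM3 stands near 16 in BH13 and above 81 in REF.

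Close relatives were set against each other within each array. The rise of AGP1 exceeded that of GNP1 by 1.49 ± 0.12 on the log2 scale (SE of the within-array difference, n = 3 per strain). The rise of BAP2 was smaller than that of BAP3, with a difference of -1.64 ± 0.10. SAM3 fell by 4.57 ± 0.08 more than MMP1, its nearest relative, which encodes the S-methylmethionine permease and itself fell by 0.58 ± 0.09. In these 3 pairs the 3 BH13 values and the 3 REF values did not overlap, and the exact permutation p was 0.1 (two-sided, also 0.1 adjusted over 4 pairs), the smallest that 3 arrays against 3 allow. For TAT1 against TAT2 the difference was -0.40 ± 0.12, likewise without overlap and with the same p, and it turned to 0.33 with normexp background correction. Of all single genes tested, 83.7% did not overlap, and no share was taken over other pairs. The coding sequences of such relatives are alike, and whether a probe of one also reads the other was not tested.

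The position of the genes was taken from the gene order of the RefSeq assembly R64. BAP2 and TAT1 lie next to each other on chromosome II and differed in direction, with a log2 difference of 0.48 for BAP2 and of -1.11 for TAT1. SAM3 and DIP5, with the largest fall and the largest rise of the 10 on the processed signal, lie on chromosome XVI with 8 genes between them. The differences of those 8 genes ran from -1.56 for DIM1, an rRNA dimethylase gene, to 0.94 for ATP15, a gene of the mitochondrial ATP synthase. None of the 8 came near the size of either permease. SAM4, directly beside SAM3 and needed to recycle methionine from S-adenosylmethionine, fell by 0.72 ± 0.08 (limma adjusted p = 4.83e-05, n = 3 per strain). Of the 20 positions next to the 10 permeases, 9 held genes called in the same direction as the permease, 8 held genes called in the opposite direction and 3 held genes that were not called, so that the share called was near the 81.3% of all genes. The median difference of all genes on the chromosomes that carry the permeases lay between -0.15 and 0.14.

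**Figure D4:**
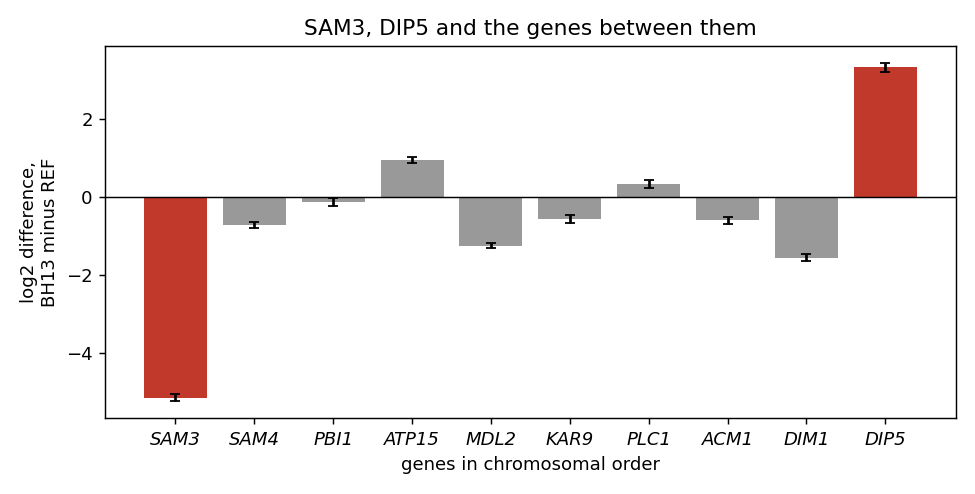
Log2 difference in signal, BH13 minus REF, of SAM3, DIP5 (both red) and the 8 genes that lie between them, in the order of the RefSeq R64 gene table; bars are limma estimates and error bars their SE (n = 3 arrays per strain). The 8 genes between lie from -1.56 to 0.94, well inside -5.15 for SAM3 and 3.31 for DIP5.

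In the authors' deposited table, which holds 8 of the 10 permeases, all 8 had the direction found here. TAT1 was at -1.505 in the authors' deposited table, against -1.11 from the scanner values. DIP5 was at 3.03 in the authors' deposited table, against 3.31 from the scanner values.

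Other permeases of the plasma membrane changed in both directions. Of 11 listed, 3 were called higher and 5 lower, near the 38% and 43.3% of all genes, with a median difference of -0.12. GAP1, the general amino acid permease, had 71.9%, 68.8% and 76.0% of the 75th percentile in BH13, against 326%, 363% and 379% in REF, and fell by 2.30 ± 0.09 on the log2 scale (limma adjusted p = 1.07e-07, n = 3 per strain). The broad permease genes AGP1, GNP1, BAP2 and BAP3 thus rose while the broadest of all fell. AGP2, a family member that regulates carnitine and polyamine uptake, rose by 1.37 ± 0.12, and PTR2, the di- and tripeptide transporter gene, rose by 0.82 ± 0.08. The arginine permease gene CAN1 fell by 0.84 ± 0.11.

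Genes of the SPS pathway went both ways. Of 13, 2 were called higher and 5 lower, a smaller share than the 81.3% of all genes called, with a median difference of -0.07. The sensor gene SSY1 had a log2 difference of -0.07 ± 0.08 and the factor gene STP1 one of -0.12 ± 0.08, and neither was called. STP2, the second factor gene, had 29.5%, 29.1% and 26.6% of the 75th percentile in BH13, against 61.2%, 58.3% and 65.7% in REF, and fell by 1.12 ± 0.08 (limma adjusted p = 3.41e-06, n = 3 per strain). GRR1, which encodes the F-box protein through which the sensor signals, fell by 1.44 ± 0.10, and YCK2, a casein kinase gene, fell by 1.17 ± 0.07. DAL81, which encodes a cofactor of Stp1 and Stp2, fell by 0.65 ± 0.08. Cleavage of Stp1 and Stp2 is not read by an array.

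Among 13 genes for transcription regulators of nitrogen and amino acid genes, 4 were called higher and 7 lower, with a median of -0.27, and the share called was near the 81.3% of all genes. GCN4, whose product turns on amino acid synthesis genes in starvation, was lower with a difference of -1.81 ± 0.08. GAT1, a GATA activator, fell by 1.23 ± 0.10, and GLN3, another, rose by 0.84. DAL80, a GATA repressor gene, was well above background on 0 BH13 arrays and 3 REF arrays, so that it was tested only through REF. With BH13 raised to the lowest signal well above background on each array, DAL80 was 4.75-fold lower there on the processed signal. That is no lower limit, since normexp correction brought its log2 difference to -0.63. MET28, a factor of sulfur amino acid genes, rose by 1.96 ± 0.09, whereas the sulfur compound permeases MUP1 and SAM3 fell. The other such factors listed went both ways, with MET32 at 1.11, MET31 at -0.42, MET4 at -0.47 and CBF1 not called.

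Among 11 genes that act on permease proteins, here the trafficking list, 2 were called higher and 3 lower, with a median of 0.06, and the share called was below the 81.3% of all genes. The arrestin-like adaptor genes LDB19, which fell by 0.90 ± 0.08, and ALY2, which fell by 0.62 ± 0.07, were joined by ECM21, which fell by 0.60 ± 0.10, and CSR2 rose by 0.59 ± 0.11. BUL1, named here after its values were seen because it is the other of the 2 called higher, had a difference of 0.24 ± 0.08. Its call ended without BH13 replicate 1, BH13 replicate 2, REF replicate 1 or REF replicate 3 (limma adjusted p = 0.0622 to 0.0704) and with normexp background correction (limma adjusted p = 0.0588). The count called higher was 1 without BH13 replicate 1, BH13 replicate 2 or REF replicate 1. SHR3, the chaperone that lets permeases leave the endoplasmic reticulum, was at 0.28 ± 0.13, and RSP5, the ubiquitin ligase that marks them for endocytosis, at 0.11 ± 0.08, and neither was called.

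Of 12 vacuolar amino acid transporter genes tested of 13 listed, 4 were called higher and 6 lower, with a median of -0.41, and the share called was near the 81.3% of all genes. On no array was VBA3 well above background. VBA1 and VBA2, which carry basic amino acids into the vacuole, were lower, VBA1 by a difference of -1.45 ± 0.08 and VBA2 with REF 2.84-fold above BH13, and YPQ1, a transporter of basic amino acids, fell by 1.37 ± 0.09. RTC2, a relative of YPQ1, rose by 2.25 ± 0.19, with 323%, 309% and 327% of the 75th percentile in BH13, against 57.9%, 54.7% and 95.9% in REF.

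**Figure D5:**
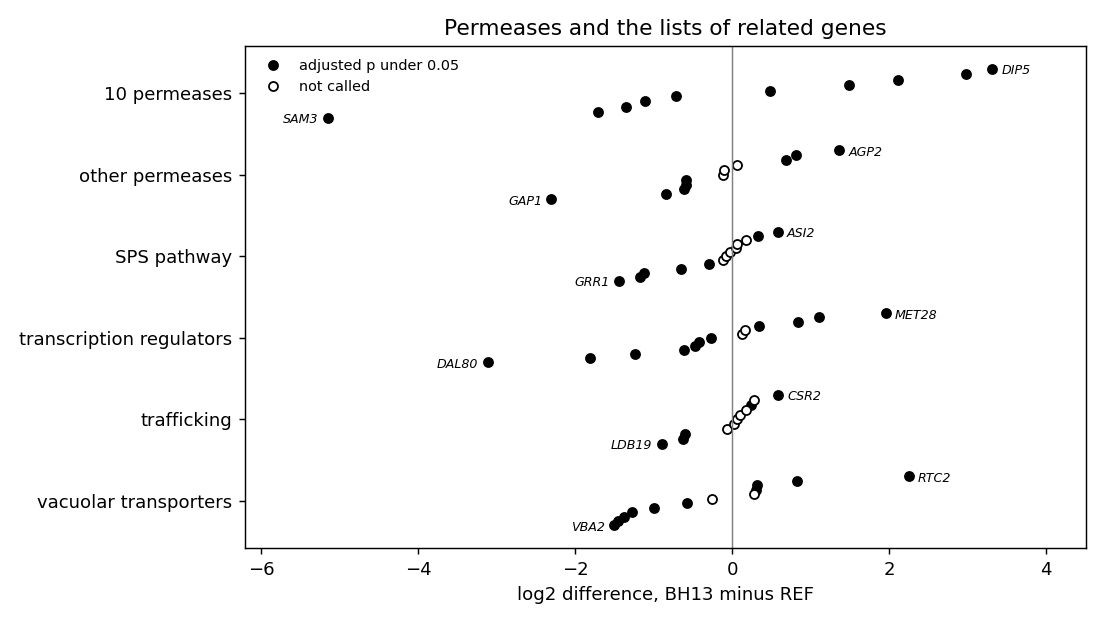
Log2 difference in signal, BH13 minus REF, for the 10 permeases and the tested genes of 5 related lists; filled points passed the limma test at an adjusted p under 0.05 and open points did not, and the lowest and highest gene of each list is named. The 10 permeases span -5.15 to 3.31, a wider range than any of the 5 lists, and the fitted value of DAL80 is no bound because its BH13 signal was not well above background.

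Genes whose pattern over the 6 arrays was most like that of DIP5 and SAM3, the members with the largest rise and fall on the processed signal, were found by the root mean square distance of log2 values after each gene's mean was subtracted. For DIP5 these were HMLALPHA2 at 0.06, MATALPHA2 at 0.07 and RNY1, a vacuolar ribonuclease gene, at 0.08. The first 2 are copies of the alpha2 mating-type gene, and whether their probes read the same transcript was not tested. The 3 genes rose by 3.31, 3.34 and 3.24. As many as 45 genes lay within 0.2 of DIP5, whose own REF signal was close to background. The largest rise was that of AGP1 with normexp background correction (2.81, against 1.37 for DIP5) and with cyclic loess scaling (3.05, against 2.99 for DIP5). For SAM3 the nearest were FAR1, a cell-cycle inhibitor of the mating response, at 0.23, ARO3, of aromatic amino acid synthesis, at 0.32 and ERG20, of sterol precursor synthesis, also at 0.32. No gene lay within 0.2 of SAM3. In BH13, ARO3 was well above background on 0 of 3 arrays and FAR1 on 2 of 3, so that their distances rest partly on background signal.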

How the data were processed

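RNA (200 ng) from log-phase samples, 3 of BH13 and 3 of REF, was Cy3-labelled, per the labels' protocols. Whether the replicates were separate cultures is not said, so p-values reflect only how far these samples spread, and that spread may be technical. The deposited scanner files give spot intensity, background-subtracted, per the file headers, by Agilent's program Feature Extraction in its version 10.7.3.1. Version 9.1 is named in the submitters' processing notes. The authors' deposited table has row-centred log2 values for 1325 probes. Its columns had medians of -0.58, -0.53 and -0.55 in BH13 and of 0.56, 0.60 and 0.52 in REF. Set against the scanner values, its strain differences ran in the same direction for all 1325 probes, on the same scale (slope 1.00, r = 0.999 across probes). The scaling of its arrays and its probe filter were not given in the sources used here, but its smallest strain difference was 0.92 in size.

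Here, after removal of controls and outlier spots, both spots of each probe were averaged on the log2 scale and expressed relative to the array's 75th percentile (2301 to 4905 units). A gene was tested if its probe had at least 1 spot well above background on at least 3 arrays, which left out 366 of 6256. The test was limma 3.58.1 (lmFit, eBayes, two-sided) in R 4.3.3, checked on simulated data, at a Benjamini-Hochberg adjusted p under 0.05. The number of arrays limits the precision. RefSeq R64 gave names for 5756 probes and the gene order. Its coordinates are not printed, since the array design names another build. Plots were made in matplotlib 3.10.9 (Python 3.11.15).

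The 10 members and all lists were chosen with earlier results of these data known. The text names the members, up to 4 called genes of largest difference per list, the genes of the pairs, SSY1, STP1, STP2, GCN4, GAP1 and the 3 patterns nearest to each extreme member. SHR3, RSP5, BUL1, VBA3, GLN3, MET4, MET31, MET32, CBF1, the check-list genes and the genes near members were named outside that rule. The closing section gives the effect of other background correction (normexp on median signals), scaling (median, quantile, cyclic loess), filters on probes and spots, variance models, blocks for replicate or slide, the authors' values and single arrays left out. A filter on both spots of a probe was chosen after seeing the data.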

Additional observations from a re-analysis of the deposited data

How the results depend on the processing

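The 10 permeases kept their direction under all alternatives that hold them (BAP2 and TAT2 are not in the authors' table). The variance model and the replicate block cannot change a direction here. Each slide held 1 strain, so the slide block does not separate slide from strain. The calls of the permeases were the same in all but 1 case, TAT1 with normexp background correction (log2 difference -0.30). Normexp moved SAM3 to -4.46 and DIP5 to 1.37, and AGP1 had the largest rise with normexp and with cyclic loess. With the replicate number as a block, 5 permeases were called higher and 5 lower, as without it, and of all genes 2270 were higher and 2576 lower, against 2240 and 2548 without it. The block changed the call of none of the members, the pairs or the list genes named by rule, while it moved the counts to 3 trafficking genes higher and to 5 vacuolar genes higher and 7 lower. Same-numbered samples deviated together at r = 0.126, 0.242 and 0.00266, so the numbers were not taken to pair them, and not every sample correlated best with its own number. Normexp also gave a difference for TAT1 against TAT2 of 0.33, the opposite sign. SSY1, not called, was at 0.051 with cyclic loess scaling. The count of trafficking genes called higher was 5 with cyclic loess and 4 with an intensity trend, and it ranged from 1 to 3 when single arrays were left out. The authors' table holds fewer genes: 1 of the other permeases (0 higher, 1 lower), 3 of the SPS pathway (0 higher, 3 lower), 3 of the regulators (1 higher, 2 lower), 5 vacuolar genes (0 higher) and no trafficking gene. In that table the smallest strain difference was 0.92 in size, so its counts cover only genes with large differences. Leaving out single arrays moved the log2 difference of SAM3 between -5.20 and -5.07 and that of DIP5 between 3.22 and 3.41. Signal over background limits TAT1 in BH13 and DIP5 in REF, and it limits the size of the SAM3 difference through its dim BH13 signal.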
